A study of Mus musculus with 3 samples.

Results

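The genes described here encode the contractile machinery of smooth muscle: Tagln, Acta2, Actg2, Cnn1, Myl9, Myh11, Tpm1, Tpm2, Cald1 and Des. They were chosen by name, with earlier results of these data known, so counts of members are descriptions. Every probe of the array that carried one of these gene symbols was taken. Of the 10 genes 9 had a probe, 1 each, among 16390 genes with a named probe and 23473 probes on the array. Myl9, the regulatory light chain of smooth muscle myosin, was not found under its current or older symbols and is not analysed here. Expression was measured in 3 lines of mouse OP9 cells on 1 one-colour array each. OP9-DL cells expressed green fluorescent protein and the Notch ligand Delta-like 1, OP9-GFP cells expressed green fluorescent protein alone, and OP9 cells were the parental control. All 3 are stromal cells from B6C3Fe-a/a-Csf1op/Csf1op mice, taken from the skull vault of newborns that lack working macrophage colony-stimulating factor, and all were grown in the same serum-containing medium with no treatment. How the genes were introduced, and whether each line is a clone, is not stated in the labels.

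Smooth muscle contracts when myosin filaments pull on actin filaments that are anchored to the cell edge. The actin filament is built from the actins Acta2 and Actg2 and is covered by tropomyosin, calponin, caldesmon and transgelin, while Myh11 is the myosin heavy chain and desmin the intermediate filament. Many of these genes are driven by serum response factor (SRF), which binds a short DNA element named the CArG box together with cofactors of the myocardin family. Stromal cells and fibroblasts switch on part of the set when they turn into myofibroblasts, and Acta2 is the usual marker of that state.

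CArG boxes were looked for in the promoters of the members, since 6 members were 2-fold or more higher in OP9-GFP cells than in OP9 cells, as described below. RefSeq promoter windows of build GRCm38.p6 were at hand for 7 members, in 8 windows, and the 250 bases before each start were searched. Windows for Tagln, Actg2 and Myh11 were not used here. The sequences of 4 members are shown 5′ to 3′, for 3 genes that were higher in OP9-GFP cells (Acta2, Tpm1 and Cnn1) and 1 that was not (Tpm2). Capitals mark each stretch that matches the CArG box with at most 1 mismatch over its 10 letters.
Acta2, chr19:34255374-34255623, minus strand: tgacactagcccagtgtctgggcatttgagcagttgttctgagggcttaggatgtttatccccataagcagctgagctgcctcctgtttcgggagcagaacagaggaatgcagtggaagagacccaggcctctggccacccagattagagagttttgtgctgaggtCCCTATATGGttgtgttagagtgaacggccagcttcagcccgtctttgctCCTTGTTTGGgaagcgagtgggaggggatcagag
Tpm1, chr9:67049214-67049463, minus strand: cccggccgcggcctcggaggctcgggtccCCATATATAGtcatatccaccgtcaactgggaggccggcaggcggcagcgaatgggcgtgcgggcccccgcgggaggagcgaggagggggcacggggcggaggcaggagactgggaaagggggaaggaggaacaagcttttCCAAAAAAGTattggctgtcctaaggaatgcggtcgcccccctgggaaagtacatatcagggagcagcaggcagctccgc
Cnn1, chr9:22099003-22099252, plus strand: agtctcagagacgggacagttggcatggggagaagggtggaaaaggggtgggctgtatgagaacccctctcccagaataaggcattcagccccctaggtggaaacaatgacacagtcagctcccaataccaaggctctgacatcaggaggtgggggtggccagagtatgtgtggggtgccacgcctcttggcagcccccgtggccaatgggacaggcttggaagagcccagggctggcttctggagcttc
Tpm2, chr4:43523555-43523804, minus strand: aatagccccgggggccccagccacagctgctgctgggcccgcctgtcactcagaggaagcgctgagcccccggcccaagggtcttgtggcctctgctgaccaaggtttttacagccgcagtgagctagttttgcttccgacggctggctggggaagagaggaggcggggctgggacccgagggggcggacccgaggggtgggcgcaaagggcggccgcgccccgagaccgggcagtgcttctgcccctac
The Acta2 window held CCCTATATGG, which starts 84 bases before the start site, and CCTTGTTTGG, which starts 34 bases before it. Acta2 is known for a pair of such imperfect elements. The Tpm1 window held CCATATATAG and CCAAAAAAGT, and the Cnn1 and Tpm2 windows held no match. Among the 7 members Myl9 alone had a full CArG box in these windows, CCTAATAAGG, and it had no probe. A match with at most 1 mismatch was found in 4 of the 8 windows (Acta2, Myl9, Tpm1 and 1 of both Cald1 windows), against 18.6% of all 32851 windows, and a full match in 1 of 8, against 1.47%. Full matches were not particular to the members, where 1 of 7 genes had one. Of the lists described below, 7 of 16 broadly used SRF targets and 6 of 21 relatives of the members had one. So did 4 of 28 other contractile apparatus genes and 1 of 19 genes of SRF and its regulators. The element CATTCC, the binding letters of TEAD factors, stood on either strand in 3 of the 8 windows (Acta2, Tpm1 and the same Cald1 window), against 12.6% of all windows. No CATTCC match overlapped a CArG match in these windows. The CArG pattern is its own reverse complement, so each match counts for both strands. Searched bases that lie inside the annotated span of the gene, which then begins further upstream than the start site used, numbered 250 of 250 in the Tpm1 window and in 1 Cald1 window, 212 for Acta2, 56 for Myl9, 32 for Cnn1, 29 for Tpm2, 9 in the other Cald1 window and 0 for Des. These matches describe the letters only and say nothing of whether a factor binds there.

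Values are the authors' scaled probe intensities, with a median of 20 on each array, and differences are between log2 intensities of 2 arrays. A difference of 2-fold or more is counted as higher or lower. With 1 array per line there is no replicate check, no test and no error, and what the introduced genes do cannot be told apart from any other difference between the cultures. In such bulk RNA, more cells that express a gene and more RNA per cell cannot be told apart either. Dll1, which encodes the introduced ligand, read 333.3 in OP9-DL cells, 20.5 in OP9-GFP cells and 14 in OP9 cells, and was highest in the line labelled as carrying it. The share of all probes past 2-fold was taken over the 15581 probes that had a value on all 3 arrays and a mean log2 intensity of at least 2.62, which is an intensity of 6.13. All 9 members had a value on all 3 arrays and 8 reached that limit. Cnn1 was below it in OP9 cells and reached it through the other arrays.

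The smooth muscle actins stood far higher in both lines with GFP than in parental OP9 cells. Acta2, smooth muscle alpha-actin, had an intensity of 27654.6 in OP9-DL cells, 27256.5 in OP9-GFP cells and 4435.6 in OP9 cells. The OP9-DL and OP9-GFP values were nearly the same and both lay 6-fold above OP9, by 6.23-fold and 6.14-fold. These readings were below the highest intensity of each array (42589.5 on OP9-DL and 42111.6 on OP9-GFP), which several probes shared. Actg2, the gamma-actin of visceral smooth muscle, had 1943.3 in OP9-DL cells, 2926.1 in OP9-GFP cells and 164.9 in OP9 cells. It was 11.8-fold higher in OP9-DL cells and 17.7-fold higher in OP9-GFP cells than in OP9 cells. Actin genes are close copies of each other, and the probe sequences were not used here, so these readings may mix relatives and are uncertain. Acta1, the skeletal muscle actin, followed another order, with 226 in OP9-DL cells, 50.7 in OP9-GFP cells and 7.5 in OP9 cells. The actin of all cells, Actb, had 26179.6 in OP9-DL cells, 31762.1 in OP9-GFP cells and 23648.7 in OP9 cells by its brighter probe, and 18433.2, 16543.4 and 13908.5 on the same arrays by its other probe. Both Actb probes thus stayed within 2-fold in all 3 comparisons.

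**Figure D1:**
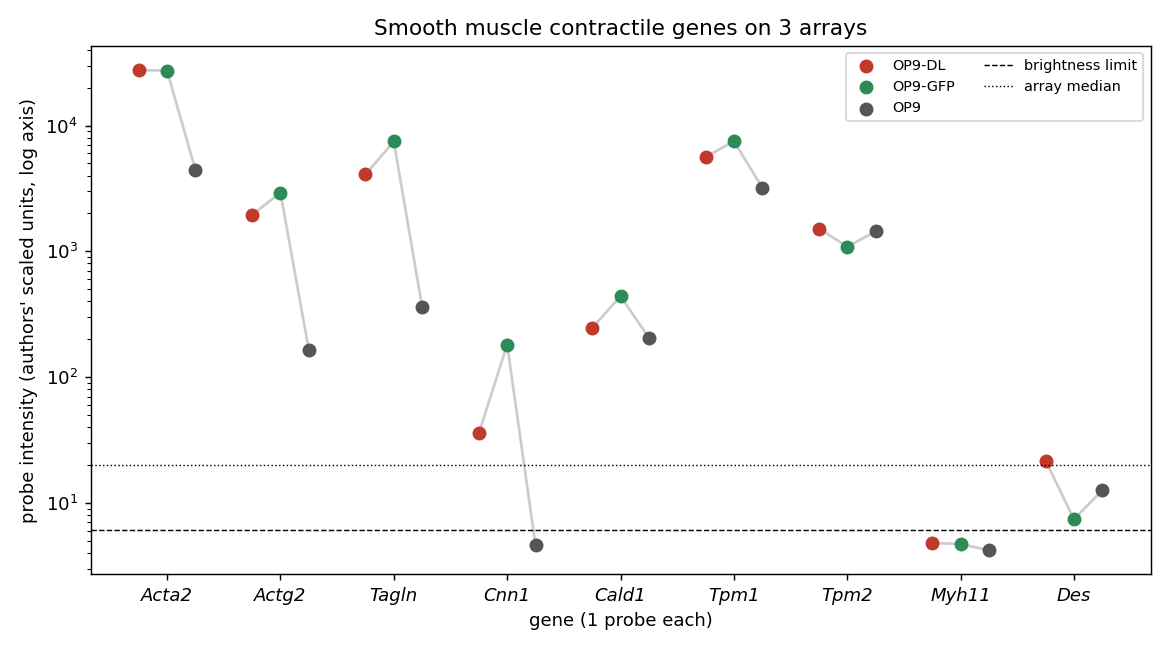
Intensity of the 9 measured smooth muscle contractile genes on the OP9-DL, OP9-GFP and OP9 arrays (points, 1 probe per gene, log axis); levels of different genes cannot be compared. The dashed line is the brightness limit of 6.13 and the dotted line the array median of 20. Acta2, Actg2, Tagln and Cnn1 have both points of the lines with GFP 2-fold or more above the OP9 point. Cald1, Tpm1 and Myh11 have both above it by less in at least 1 line, and Myh11 lies below the limit on all 3 arrays.

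Proteins that sit on the actin filament split into a group with large differences and a group with small ones. Tagln, transgelin, an actin-bundling protein and early marker of the smooth muscle state, had 4078.6 in OP9-DL cells, 7468.5 in OP9-GFP cells and 362.3 in OP9 cells. The OP9-GFP reading was the highest, and both lines with GFP were over 10-fold above OP9, OP9-DL by 11.3-fold and OP9-GFP by 20.6-fold. Cnn1, calponin, which restrains the myosin motor, had 35.7 in OP9-DL cells, 181.2 in OP9-GFP cells and 4.6 in OP9 cells. Here the OP9-DL reading lay between the others, 7.76-fold above OP9 and 5.08-fold below OP9-GFP. The OP9 reading of Cnn1 was below the limit of 6.13 and the files give no detection call, so its fold over OP9 is not firm. With a constant of 5 added before log2, its log2 difference of OP9-GFP against OP9 was 4.28, where it was 5.30 without a constant.

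Cald1, caldesmon, which ties actin to myosin and tropomyosin, had 245.3 in OP9-DL cells, 440.3 in OP9-GFP cells and 205.3 in OP9 cells. It was 2.14-fold higher in OP9-GFP cells than in OP9 cells, while OP9-DL and OP9 cells differed by 1.19-fold. Tpm1, alpha-tropomyosin, had 5601.1 in OP9-DL cells, 7523.2 in OP9-GFP cells and 3205.6 in OP9 cells. It was 1.75-fold higher in OP9-DL cells and 2.35-fold higher in OP9-GFP cells than in OP9 cells. Tpm2, beta-tropomyosin, had 1517.6 in OP9-DL cells, 1088.1 in OP9-GFP cells and 1438.9 in OP9 cells. The 3 readings of Tpm2 lay within 2-fold of each other, and OP9-GFP was the lowest. Cald1, Tpm1 and Tpm2 each make muscle and non-muscle forms by splicing or other start sites, and a single probe does not tell these forms apart.

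Myh11, a late marker of smooth muscle, was dim on all 3 arrays, and Des did not follow the actins. Myh11, the smooth muscle myosin heavy chain, had 4.8 in OP9-DL cells, 4.7 in OP9-GFP cells and 4.2 in OP9 cells. These readings are below the limit of 6.13 and within 1.14-fold of each other, so no difference in Myh11 was detectable on these arrays. Des, desmin, the muscle intermediate filament, had 21.6 in OP9-DL cells, 7.4 in OP9-GFP cells and 12.6 in OP9 cells. Unlike Tagln and Cnn1, which were highest in OP9-GFP cells, Des was lowest there, 2.92-fold below OP9-DL, and the parental cells lay between. All Des readings were close to the array median of 20 or below it.

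Most members stood above the parental cells in the cells with GFP alone. Of the 9 measured members 6 were 2-fold or more higher in OP9-GFP cells than in OP9 cells (Cnn1, Tagln, Actg2, Acta2, Tpm1 and Cald1) and 0 were lower, where 4.86% of the 15581 probes were higher and 6.75% lower. Among the 5194 brightest probes, 5.74% were higher. The median log2 difference was 1.23 over the 9 members and 1.93 over the 8 that reached the limit, against 0.02 over all probes compared. Counted from the highest difference among all 15581 probes, Tagln came at rank 6, Actg2 at rank 8 and Acta2 at rank 38, while Tpm1 came at rank 428 and Cald1 at rank 597. Cnn1 is given no rank here or against OP9 below, since its OP9 reading was under the limit. The members so fell into 4 genes with log2 differences from 2.62 to 5.30, Tpm1 and Cald1 just past 2-fold, and Myh11, Tpm2 and Des at 0.16, -0.40 and -0.77.

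The cells with Delta-like 1 and GFP differed from the parental cells in 4 of the same 9 genes. Actg2, Tagln, Cnn1 and Acta2 were 2-fold or more higher in OP9-DL cells than in OP9 cells and 0 members were lower, where 4.33% of all probes compared were higher and 6.92% lower. With the arrays scaled to equal 75th percentiles, 5.73% of all probes were higher and 5.60% lower, and the same count of members, 4, was higher. The median log2 difference was 0.81 over the 9 members, against 0.02 over all probes compared. Actg2 (log2 difference 3.56) came at rank 30, Tagln (3.49) at rank 33 and Acta2 (2.64) at rank 67 of 15581, and Cnn1 had a difference of 2.96. The remaining differences were 0.81 for Tpm1, 0.78 for Des, 0.26 for Cald1, 0.19 for Myh11 and 0.08 for Tpm2. Since this comparison and the one before it use the same OP9 array, an unusual reading there would move both.

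Between the lines that differ by Delta-like 1 according to the labels, most members lay within 2-fold. Of the 9 members 1 was higher in OP9-DL cells than in OP9-GFP cells (Des) and 1 was lower (Cnn1), where 2.31% of all probes compared were higher and 2.73% lower. The median was -0.43 over the 9 members, against -0.01 over all probes compared. Tagln (-0.87), Cald1 (-0.84), Actg2 (-0.59) and Tpm1 (-0.43) stood below 0 without reaching 2-fold. Acta2 (0.02) and Myh11 (0.03) were level, and Acta2 was at -0.10 under lowess and 0.07 under 75th percentile scaling. Tpm2 stood at 0.48. From the lowest difference among all 15581 probes, Cnn1 came at rank 71, Tagln at rank 557 and Cald1 at rank 588, and Des came at rank 119 from the highest.

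**Figure D2:**
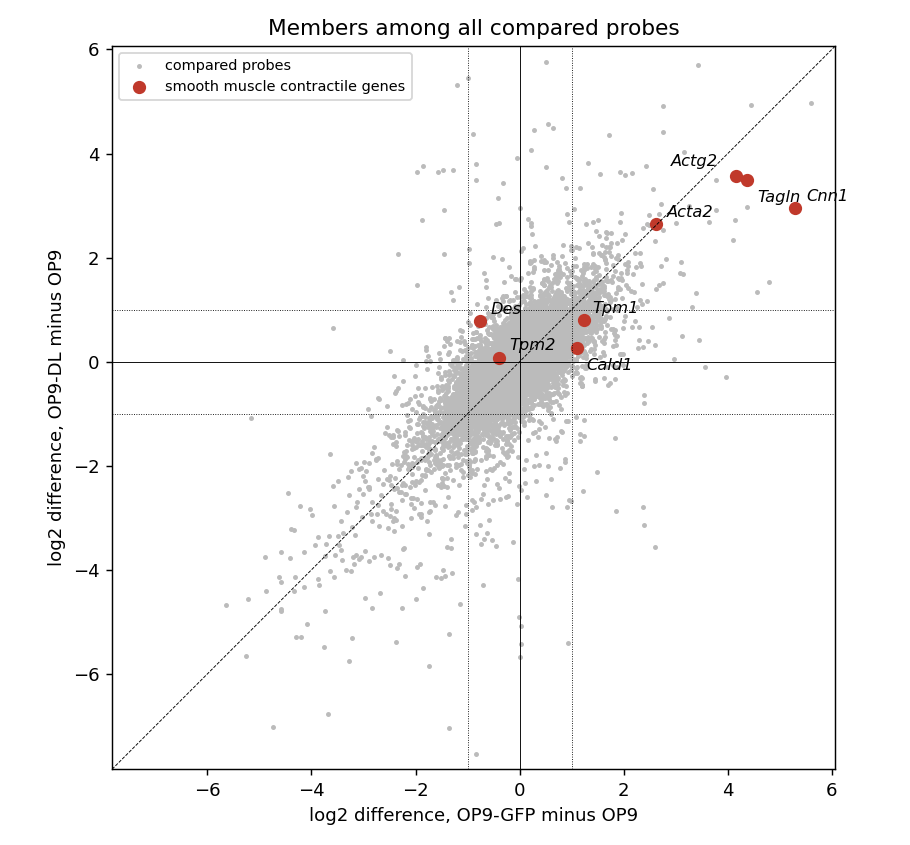
Each grey point is 1 of the 15581 compared probes, placed by its log2 difference of OP9-GFP minus OP9 (x) and OP9-DL minus OP9 (y); red points are the 8 smooth muscle contractile genes above the brightness limit. Dotted lines mark 2-fold, and on the dashed line OP9-DL and OP9-GFP are equal. Cnn1, Tagln, Actg2 and Acta2 lie at the upper right, with Cnn1 furthest below the dashed line and Acta2 on it; both axes subtract the same OP9 array.

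Close relatives of the members serve the cytoskeleton of all cells or other muscles. Their counts stand beside the shares of all probes compared. These shares were 4.86% higher and 6.75% lower for OP9-GFP against OP9 cells. They were 4.33% and 6.92% for OP9-DL against OP9 cells, and 2.31% and 2.73% for OP9-DL against OP9-GFP cells. Of 14 relatives bright enough to compare, 3 were 2-fold or more higher in OP9-GFP cells than in OP9 cells and 0 were lower, with a median log2 difference of 0.40. Beside Acta1, these were Tagln2, the transgelin of non-muscle cells, and Tpm4, a non-muscle tropomyosin. Tagln2 had 3143.8 in OP9-DL cells, 3453.2 in OP9-GFP cells and 1205.5 in OP9 cells, a 2.86-fold difference of OP9-GFP against OP9. Tpm4 had 1545.9, 1954.3 and 798.3 on the same arrays, 2.45-fold. The relatives of calponin stayed within 2-fold in this comparison, with log2 differences of 0.62 for Cnn3 and 0.50 for Cnn2. So did the non-muscle myosin heavy chain Myh9 (0.41) and vimentin, Vim (0.46), the intermediate filament of mesenchymal cells. Myl12b, a myosin regulatory light chain closely related to Myl9, had the lowest difference of the relatives, -0.77. In OP9-DL cells against OP9 cells 2 of the 14 were higher, Acta1 (log2 difference 4.91) and Tagln2 (1.38), and 0 were lower, with a median of 0.35. The difference of Acta1 there was larger than that of any member, of which Actg2 had the highest, 3.56. In OP9-DL cells against OP9-GFP cells Acta1 was the sole relative of the 14 past 2-fold, 4.46-fold higher, and 0 were lower.

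Other parts of the contractile apparatus were followed in a list of 35 genes, of which 29 could be compared. Of these, 8 were 2-fold or more higher in OP9-GFP cells than in OP9 cells and 0 were lower, with a median log2 difference of 0.46. Over all probes compared, 4.86% were higher and 6.75% lower. Mustn1, a small nuclear protein of the musculoskeletal system, had 1100.1 in OP9-DL cells, 985.8 in OP9-GFP cells and 154.5 in OP9 cells, which made it 6.38-fold higher in OP9-GFP cells than in OP9 cells. Fhl1, a LIM domain protein of muscle, had 16.4 in OP9-DL cells, 36.3 in OP9-GFP cells and 8.9 in OP9 cells. Lmod1, leiomodin, which starts actin filaments in smooth muscle, had 11.4, 11.6 and 3.9 on the same arrays, where the OP9 reading was below the limit. With a constant of 5 its log2 difference of OP9-GFP against OP9 was 0.90, which left 7 genes higher. The other genes past 2-fold were Csrp1, Csrp2 and Pdlim7, which carry LIM domains, Dstn, which severs actin filaments, and Smtn, smoothelin, from 2.11-fold to 2.76-fold. At the low end stood Parva (-0.57), a focal adhesion protein, and the myosin phosphatase subunit Ppp1r12a (-0.53) with its inhibitor Ppp1r14a (-0.07). Ppp1r12a had 7.1 in OP9-DL cells, 5 in OP9-GFP cells and 7.2 in OP9 cells, and its OP9-GFP reading was below the limit. Mylk, the kinase that switches on smooth muscle myosin, had 22.9 in OP9-DL cells, 19.1 in OP9-GFP cells and 14.3 in OP9 cells, within 2-fold in all 3 comparisons.

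In OP9-DL cells against OP9-GFP cells 0 of these 29 genes were 2-fold or more higher and 2 were lower, Fhl2 and Fhl1. Over all probes compared, 2.31% were higher and 2.73% lower. With a constant of 5 Fhl1 stood at -0.95 and was no longer counted, which left Fhl2 alone. Fhl2, a LIM domain cofactor of SRF, had 133.1 in OP9-DL cells, 652.9 in OP9-GFP cells and 537.1 in OP9 cells, so OP9-DL cells were lowest, by 4.91-fold against OP9-GFP cells and by 4.04-fold against OP9 cells. The median was 0.02, and -0.04 with the brightness limit at the 50th percentile. In OP9-DL cells against OP9 cells 5 of the 29 were higher (4 with a constant of 5, without Lmod1) and 1 was lower, with a median of 0.51. Over all probes compared, 4.33% were higher and 6.92% lower there.

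The factor SRF and cofactors of the myocardin family either stayed within 2-fold or were dim, unlike the cofactor Fhl2 above. Srf had 109 in OP9-DL cells, 135.2 in OP9-GFP cells and 89.1 in OP9 cells. Its cofactor Mrtfa, which leaves the cytoplasm when actin polymerises, had 41.3, 57.8 and 44.9 on the same arrays. Both stayed within 2-fold in all 3 comparisons. Myocd, myocardin, the cofactor of mature smooth muscle, had 4.5 in OP9-DL cells, 2.9 in OP9-GFP cells and 3.0 in OP9 cells, and Mrtfb had 3.9, 2.3 and 2.2. All readings of Myocd and Mrtfb were below the brightness limit.

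Of 19 genes of this control list that could be compared, 2 were 2-fold or more higher in OP9-GFP cells than in OP9 cells and 0 were lower, with a median of 0.38. The shares of all probes compared were 4.86% higher and 6.75% lower. Tead2, a TEAD factor, had 14.5 in OP9-DL cells, 15.8 in OP9-GFP cells and 3.4 in OP9 cells, where the OP9 reading was below the limit. Rhob, a small GTPase of the actin cytoskeleton, had 88.1, 59.2 and 28.4 on the same arrays. With a constant of 5 Rhob stood at 0.94 and was no longer counted. The low end held Klf4 (-0.80), which represses smooth muscle genes, Limk1 (-0.61) and Mef2a (-0.44). In OP9-DL cells against OP9-GFP cells Klf4 was 2.19-fold higher, with 1348 in OP9-DL cells and 615.8 in OP9-GFP cells, and Diaph1, a formin that builds actin filaments, was 2.11-fold lower, which a constant of 5 brought to -0.86 on the log2 scale, within 2-fold. Klf4 had 1075.7 in OP9 cells. Klf4, Des and Tpm2 were thus all highest in OP9-DL cells and lowest in OP9-GFP cells, Tpm2 within 2-fold. A link between them was not tested.

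Broadly used SRF targets of the cytoskeleton and the early response were counted in a list of 22 genes, of which 19 could be compared. It shares Fhl2 and Vcl with the list of the contractile apparatus, and Actb, Cnn2, Myh9 and Tpm4 with the relatives. Of these, 4 were 2-fold or more higher in OP9-GFP cells than in OP9 cells and 0 were lower, with a median of 0.41. The shares of all probes compared were 4.86% higher and 6.75% lower. Beside Tpm4 the higher genes were the matrix signalling proteins Ccn2 (13.8-fold) and Ccn1 (3.70-fold) and Filip1l (2.35-fold). The immediate early transcription factor Egr1 differed by 0.04 on the log2 scale. In OP9-DL cells against OP9-GFP cells 0 were higher and 2 were lower, Tuft1 and Fhl2, with a median of -0.21. Over all probes compared, 2.31% were higher and 2.73% lower there. Fhl2 is already counted above. Tuft1 had 4.1 in OP9-DL cells, 28.6 in OP9-GFP cells and 15.7 in OP9 cells. Its OP9-DL reading was below the brightness limit, so its fold is not firm.

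**Figure D3:**
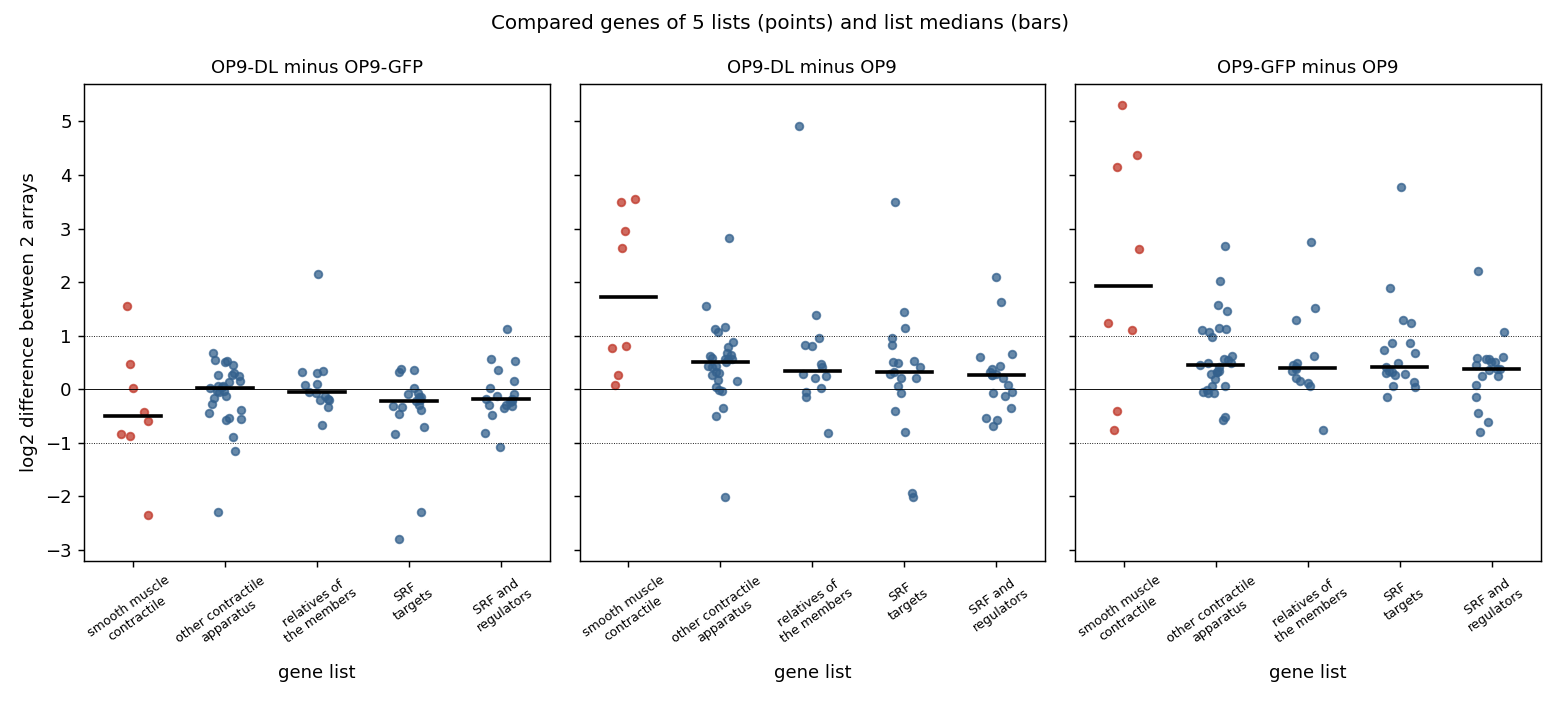
Log2 differences between 2 arrays for the compared genes of 5 lists (points), with the list median (bar) and 2-fold marked by dotted lines; panels show OP9-DL minus OP9-GFP, OP9-DL minus OP9 and OP9-GFP minus OP9. In the last panel the smooth muscle contractile genes have a median of 1.93, and the other 4 lists have medians from 0.38 to 0.46. The brightness limit leaves out Myh11 here. Without that limit the smooth muscle contractile genes have a median of 1.23, and the other 4 lists from 0.37 to 0.38.

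The probes whose pattern lay nearest to that of Tagln were sought among 11494 compared probes with a gene symbol. Nearness was the distance between the log2 differences of OP9-GFP and of OP9-DL against OP9, so it rests on 3 arrays and is a description. Actg2 was nearest, at a distance of 0.23, and Cnn1 lay at 1.08, a distance that rests on its dim OP9 reading. The nearest gene outside the members was Ankrd1, a muscle ankyrin repeat protein, with 144.8 in OP9-DL cells, 379 in OP9-GFP cells and 18.4 in OP9 cells. Ccn2 followed with 2884.3, 3524.2 and 256.2 on the same arrays, and then Tnc, the matrix protein tenascin C, with 59.5, 159.6 and 9. All of these had the order of Tagln, highest in OP9-GFP cells and lowest in OP9 cells. The rest of the 10 were Acp1, Adipoq, the adipocyte hormone adiponectin, Opn3, Fbln5, an elastic fibre protein, and Aif1l, at distances from 1.09 to 1.43. Of these, Fbln5 and Aif1l were highest in OP9-DL cells. The OP9 readings of Acp1 (2.6) and Aif1l (3.8) were below the brightness limit, so their distances are not firm either. The 5 probes nearest to Cnn1 were Ankrd1, Tagln, Tnc, Actg2 and Adipoq. Acta2 lay at a distance of 1.94 from Tagln, and Tpm1, Cald1, Myh11, Des and Tpm2 lay from 4.13 to 5.87 away.

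**Figure D4:**
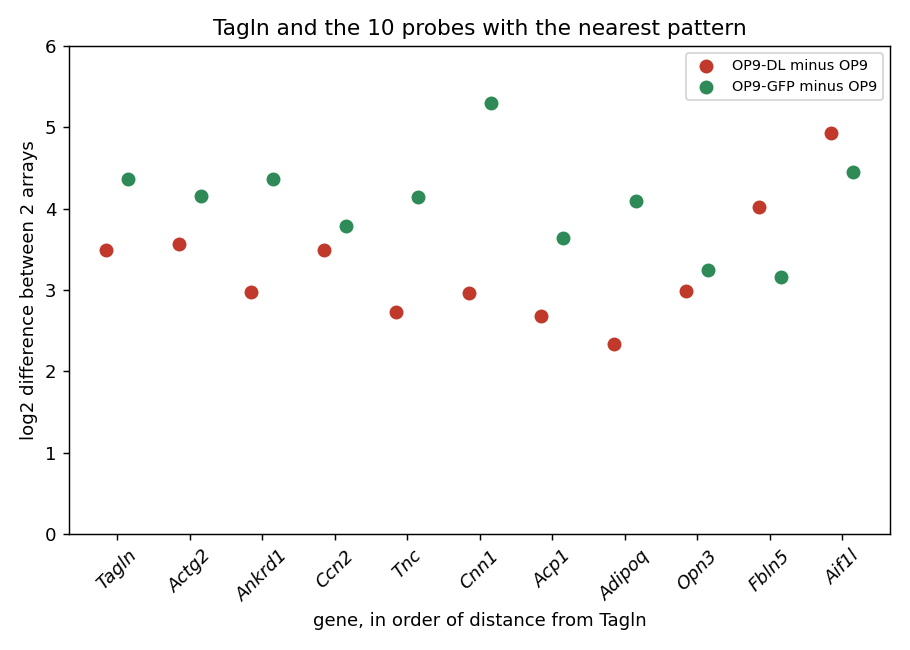
Log2 differences of OP9-DL minus OP9 and OP9-GFP minus OP9 for Tagln and the 10 probes nearest to it, in order of distance. Actg2, Ankrd1, Ccn2, Tnc, Cnn1, Acp1, Adipoq and Opn3 have the OP9-GFP point above the OP9-DL point, as Tagln does, and Fbln5 and Aif1l have it below.

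Markers of other cell types were read beside the members, and their part in the differences was not tested. The shares of all probes compared were 4.86% higher and 6.75% lower for OP9-GFP against OP9 cells. They were 2.31% and 2.73% for OP9-DL against OP9-GFP cells, and 4.33% and 6.92% for OP9-DL against OP9 cells. Of 19 skeletal and cardiac muscle markers with a probe, 9 could be compared and 2 were 2-fold or more higher in OP9-GFP cells than in OP9 cells, the troponins Tnnt2 and Tnni2, of which Tnni2 was no longer counted with a constant of 5 (0.88). Tnnt2 had 26.8 in OP9-DL cells, 46.4 in OP9-GFP cells and 12.9 in OP9 cells. In OP9-DL cells against OP9-GFP cells 2 of the 9 were higher and 0 were lower. These were Nppb (27.4 against 4.6, the latter below the limit) and Tnnt3 (19.9 against 6.7). In OP9-DL cells against OP9 cells 4 of the 9 were higher (3 with a constant of 5) and 1 was lower. The summed intensity of the list was 223.2 in OP9-DL cells, 192.7 in OP9-GFP cells and 174.3 in OP9 cells, and Myh3 had no value on any array. Of 11 pericyte and mural markers 7 could be compared and 3 were higher in OP9-GFP cells than in OP9 cells, Mcam, Rgs4 and Cspg4. Mcam, an adhesion molecule of vascular mural cells, had 111 in OP9-DL cells, 103.9 in OP9-GFP cells and 17.1 in OP9 cells, and Rgs4, a regulator of G protein signalling, had 120.4, 104.3 and 20.2. For both, the 2 lines with GFP were close together and above OP9. Pdgfrb, a growth factor receptor of pericytes and fibroblasts, went the other way, with 221.1 in OP9-DL cells, 277.8 in OP9-GFP cells and 418.3 in OP9 cells, and so did Anpep, an aminopeptidase, with 119.5, 137 and 193.4, both within 2-fold. The median of the 7 was 0.21 in OP9-GFP cells against OP9 cells and -0.59 in OP9-DL cells against OP9 cells. Cspg4, the NG2 proteoglycan, had 9.1 in OP9-DL cells, 90 in OP9-GFP cells and 25.1 in OP9 cells, so OP9-DL was the lowest. The pericyte marker Rgs5 was below the brightness limit on all 3 arrays, and the sum of the list was 660.1 in OP9-DL cells, 803.4 in OP9-GFP cells and 757.2 in OP9 cells.

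Of 14 stromal markers 11 could be compared. Among them Vim, Fn1, Col1a2 and S100a4 were bright on all 3 arrays, although Vim is made by many cell types and is counted among the relatives too. Thy1 and Dcn were below the limit on all 3 arrays. Postn, a matrix protein, had 1.9 in OP9-DL cells, 10.4 in OP9-GFP cells and 2.5 in OP9 cells and was not compared, and Lum, the proteoglycan lumican, was near the limit with 5.8, 7.5 and 5.4. The sum over the 14 stromal markers was 73031.2 in OP9-DL cells, 66112.1 in OP9-GFP cells and 65632.7 in OP9 cells, and Vim, S100a4 and Fn1 make up most of it. Col1a1, a fibrillar collagen, was 2.65-fold higher and Pdgfra, a growth factor receptor of fibroblasts, 4.82-fold lower in OP9-GFP cells than in OP9 cells. In OP9-DL cells against OP9-GFP cells 0 of the 11 were higher and 1 was lower, Col3a1 (195.9 against 936.4), with a median of -0.36. Over all probes compared, 2.31% were higher and 2.73% lower. In OP9-DL cells against OP9 cells 1 was higher and 2 were lower, with a median of -0.36. The shares of all probes were 4.33% and 6.92% there. Between OP9-GFP and OP9 cells 4.86% of all probes compared were higher and 6.75% lower, so counts of 0 in short lists tell little. Of the blood cell markers 0 of 9, of the endothelial markers 0 of 3 and of the epithelial markers 0 of 3 compared genes passed 2-fold between OP9-GFP and OP9 cells. Their sums over the OP9-DL, OP9-GFP and OP9 arrays were 282.6, 170.4 and 151.8 for blood cells, 96.9, 100.8 and 87.4 for endothelial cells, and 272, 231.3 and 201.6 for epithelial cells. Between OP9-DL and OP9-GFP cells 1 of the 9 blood cell markers passed 2-fold, Cd48, with 114.4 in OP9-DL cells, 3 in OP9-GFP cells and 2.1 in OP9 cells, which makes up most of the higher sum in OP9-DL cells. Its OP9-GFP and OP9 readings were below the limit. Cd48 was thus compared through its OP9-DL reading alone, and its fold is not firm. The leukocyte marker Ptprc was below the limit on all 3 arrays, and the endothelial markers Pecam1 and Cdh5 had a value on 1 array each.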

How the data were processed

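Amplified RNA of OP9-DL, OP9-GFP and OP9 cells was coupled to Cy5 and hybridised to Toray arrays, 1 per line, per the labels' protocols. The authors deposited linear intensity values, scaled to a median of 20 on each array as the values show. The scanner, the background correction and the reason for blank values were not given in the labels. Each array had a value for 21920 (OP9-DL), 21941 (OP9-GFP) and 21989 (OP9) of 23473 probes. The number of arrays, 3, limits the precision.

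Log2 was taken without a constant. Probes with a value on all 3 arrays (20775) and a mean log2 at or above the 25th percentile (15581) were compared. The platform table gave 1 symbol for 16631 probes and none for 6842. Of these symbols 12622 were current, 3947 were renamed through the GRCm38.p6 gene table and 62 were kept. Genes with several probes took the mean.

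The members and lists were chosen with earlier results of these data known. Genes outside the members are named from the 3 highest and 3 lowest of each list in OP9-GFP against OP9, the 2 highest and 2 lowest in OP9-DL against OP9-GFP, 8 genes fixed by name (Srf, Myocd, Mrtfa, Mrtfb, Actb, Actg1, Myh9 and Vim) and the nearest probes. Others complete a count of 10 or fewer or tell where marker genes, Cnn2 and Mylk lay. These others were chosen after their values were seen. Actg1 had no named probe. Alternatives were quantile, 75th percentile and lowess scaling (span 0.3), other brightness limits, a constant of 5, blanks at the lowest value, the brightest probe per gene, and limits of 1.5-fold or 3-fold for a count. The counting was tested on simulated data. The work was done in Python 3.11.15 with pandas 2.3.3, numpy 2.4.6, statsmodels 0.14.6 and, for figures, matplotlib 3.10.9.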

Additional observations from a re-analysis of the deposited data

How the results depend on the processing

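No paired analysis was possible because each line had 1 array. Under quantile, 75th percentile and lowess scaling the counts of members past 2-fold were the same in all 3 comparisons, although 75th percentile scaling moved the median of all probes in OP9-DL against OP9 to 0.13, where it was 0.02. The median of the members rested on the limit on dim probes. For OP9-GFP against OP9 it was 1.93 over 8 members, 1.23 without the limit or with blanks set to the lowest value (9 members), and 2.62 with the limit at the 50th percentile, which Des did not reach. For OP9-DL against OP9 it was 1.72 over 8 members, 0.81 without the limit or with blanks at the lowest value, 2.64 with the limit at the 50th percentile, and 1.44 with a constant of 5. The call of Des in OP9-DL against OP9-GFP was lost at the 50th percentile limit and at 3-fold, which left 0 members higher. At 1.5-fold, 4 of the 8 members were lower in that comparison (Cnn1, Tagln, Cald1 and Actg2), where 8.47% of all probes compared were lower. At that threshold 1 of the 8 was lower in OP9-GFP against OP9 (Des), where 15.4% of all probes compared were lower. In OP9-DL against OP9 6 of the 8 were higher at 1.5-fold, with Tpm1 and Des added, where 13.3% of all probes compared were higher. At 3-fold, Tpm1 and Cald1 were no longer counted in OP9-GFP against OP9. No single member changed direction while past 2-fold. Outside the members, a constant of 5 ended the calls of Lmod1 (both lines with GFP against OP9), Fhl1 and Diaph1 (OP9-DL against OP9-GFP), Rhob and Tnni2 (OP9-GFP against OP9) and Tnnt2 (OP9-DL against OP9), among the genes of the 11 lists. The brightness of Cnn1 in OP9 cells and of Myh11 and Des limits what can be read from them. Of the 10 probes nearest to Tagln, from 8 to 10 were shared under each alternative, and Actg2 was nearest under all.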
